A study of Arabidopsis thaliana with 15 samples.

Results

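The comparison set the 3 arrays of Arabidopsis leaf disks cultured for 36 h against the 3 arrays of disks cultured for 24 h. These were 6 of the 15 arrays of a time course whose 5 times, from 0 to 48 h in steps of 12 h, have 3 arrays each; they were chosen by the time in their titles, and every one of the 22746 probe sets that is no Affymetrix control was compared. All disks were cut, 1 mm across, from rosette leaves of 25-day-old Col-0 plants. Both groups were cultured with 2,4-D (1.25 mg/L), an auxin, kinetin (0.25 mg/L), a cytokinin, and bikinin (10 µM), an inhibitor of GSK3-like kinases that switches on brassinosteroid signalling, so that the groups differed in time alone. The samples hold no disks grown on medium lacking the 3 compounds, and an effect of the compounds cannot be told apart from one of cutting or of time in culture. The titles do not say that the replicates were separate cultures, so the p-values measure the spread between arrays, which may be technical. The third 36 h array carries no number in its title and was counted as replicate 3.

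Xylem vessel cells are built in a set order. Cambium-like cells divide, leave division, lay down a secondary wall of cellulose, xylan and lignin under a patterned array of cortical microtubules, and then digest their contents in a programmed death. Brassinosteroids and auxin act on the switch from cambial cell to xylem cell, and GSK3-like kinases hold that switch back, which is why bikinin is used to start it in leaf tissue. Mesophyll cells that take this route lose the photosynthetic machinery of the leaf.

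The 24 h arrays had median signals of 145.9 to 150.3 and the 36 h arrays 153.4 to 160.6, in the arbitrary units of the scanner software. Log2 signals of arrays of the same time correlated at 0.895 to 0.954 and those of a 24 h with a 36 h array at 0.851 to 0.944, both across probe sets, which are not independent. The label "leaf" was borne out at 0 h, where the summed signal of 8 nuclear photosystem genes was 154662 to 220044 on single arrays. The same sum was 15367 to 28978 at 24 h and 6413 to 17857 at 36 h. In bulk tissue, fewer cells of a type and less RNA per cell cannot be told apart. The annotation used here pairs 13513 probe sets with 1 gene each. Most lists below were therefore measured only in part. The 28 genes chosen by rule were 4 of the called genes and 24 list members. Every other gene named below was chosen after its values were seen.

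Between 24 and 36 h, 17 probe sets rose and 0 fell at an adjusted p under 0.05 in limma's moderated test, 0.0747% and 0% of the 22746 tested. The 17 rose by 2.77-fold or more, with a median log2 change of 2.91. The highest fold among them, 27.6 for probe set 255823_at, was computed over 24 h signals near the floor of the measurement. At an unadjusted p under 0.05 there were 2209 probe sets, 1303 of them higher and 906 lower at 36 h. The smallest adjusted p among the lower ones was 0.0782. The 3 arrays of 36 h lay wholly above the 3 of 24 h for 2309 probe sets (10.2%) and wholly below them for 2046 (8.99%). In each of the 3 pairs of arrays with the same replicate number the 36 h signal was higher for 5564 probe sets (24.5%) and lower for 5209 (22.9%). The median log2 change over all probe sets was -0.0068.

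**Figure D1:**
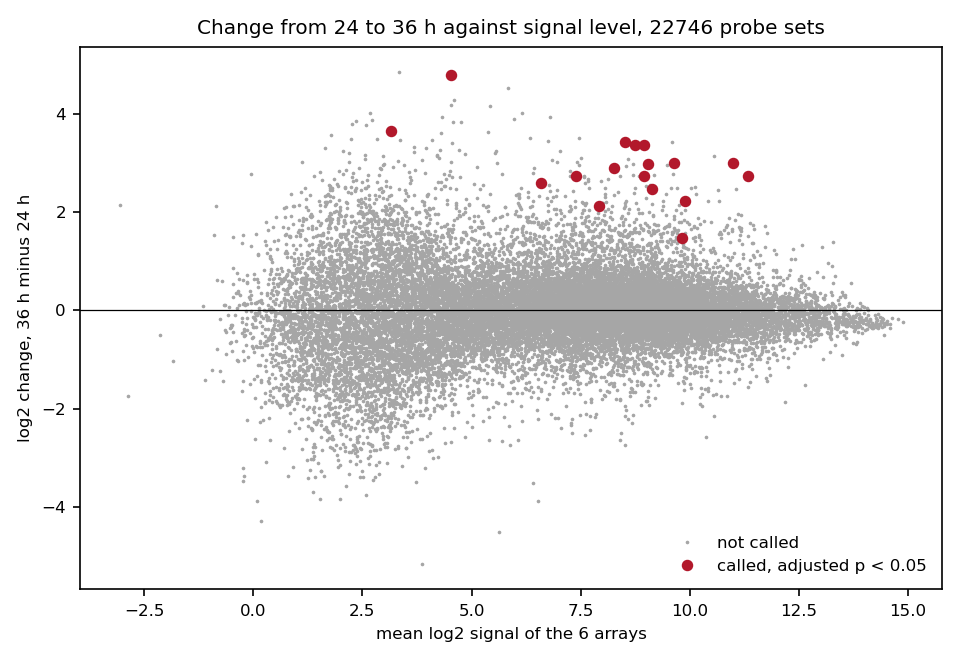
The log2 change from 24 to 36 h of each of 22746 probe sets (vertical axis) is plotted against its mean log2 signal on the 6 arrays (horizontal axis), with the 17 called probe sets as large red points. All called points lie above 0, and 10 of them have a mean log2 signal between 8 and 10.

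Most calls lay at middling signal levels. Of the 5863 probe sets with a mean log2 signal of 8 to 10, 10 were called and the median change was 0.06, whereas the 743 brightest, at 12 or above, had none called and a median of -0.15. Among the 17856 probe sets whose highest group mean reached a signal of 34.24, 1263 (7.07%) were at least 2-fold higher and 876 (4.91%) at least 2-fold lower at 36 h by their means.

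Of the 17 called probe sets, 5 are paired with a gene in the annotation, each given here by its locus identifier, and 12 are unnamed here. A locus identifier does not say what a gene does, and no role is given for these 5. AT5G51890 had signals of 469, 937 and 843 in the replicates of 24 h and 8371, 6549 and 3389 in those of 36 h. Every 36 h array was above every 24 h array, and replicate 3 was the lowest of the 36 h arrays. The log2 change was 2.99 ± 0.37 (SE, n = 3 arrays per time), a 7.94-fold rise with adjusted p = 0.0282. AT2G41610 had 33.2, 52.2 and 33.9 at 24 h and 321, 331 and 123 at 36 h. The groups did not overlap, and replicate 3 was again the lowest at 36 h. Its log2 change was 2.60 ± 0.40, with adjusted p = 0.0437 and, with the replicate number as a block, 0.0642.

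AT3G54040 had signals of 395, 477 and 449 at 24 h and 3045, 1743 and 1654 at 36 h. The 24 h arrays were close together, and the 36 h arrays were spread less than 2-fold. Its log2 change was 2.23 ± 0.32, with adjusted p = 0.0342. AT2G22420 had 99.7, 161 and 95.0 at 24 h and 504, 599 and 424 at 36 h. The groups did not overlap. Its log2 change was 2.13 ± 0.32, with adjusted p = 0.0372, and 0.0512 with the replicate block. AT1G65810, whose signal was too low for the rule, had 2.72, 1.92 and 2.99 at 24 h and 50.8, 27.0 and 22.8 at 36 h. Its log2 change was 3.66 ± 0.44, with adjusted p = 0.0282. Its 24 h signals lie far below 34.24, where folds are uncertain because no detection calls were used.

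With no offset before the logarithm, the called probe set with the highest change was 255823_at, unnamed here, with 2.54, 6.74 and 4.89 at 24 h and 210, 243 and 34.8 at 36 h. Its log2 change was 4.79 ± 0.65, with adjusted p = 0.0327. On the scale log2(signal + 16), which damps dim signals, the change was 2.80, below the 2.96 of AT5G51890. The unnamed probe set 262796_at had 577, 1717 and 1009 at 24 h and 8047, 8490 and 4254 at 36 h. This is a rise from an already bright signal, with a log2 change of 2.73 ± 0.38 and adjusted p = 0.0342.

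The 17 called probe sets shared a pattern over the arrays. In 16 of them replicate 3 was the lowest of the 36 h arrays, and in 12 replicate 2 was the highest. In 14 of them replicate 1 was the lowest of the 24 h arrays. The means of the other times place this rise within the course. AT5G51890 went from a mean signal of 773 before culture to 337 at 12 h and 750 at 24 h, close to its start, and then to 6103 at 36 h and 9073 at 48 h. AT2G41610 was likewise near its starting level at 24 h, with means of 38.2 at 0 h, 30.3 at 12 h and 330 at 48 h. AT3G54040 began earlier, from a mean of 76.3 before culture and 74.6 at 12 h, and ended at 3767 at 48 h; it was also called from 12 to 24 h (log2 change 2.56, adjusted p = 0.0337). AT2G22420 had 65.5 at 0 h, 62.4 at 12 h and 773 at 48 h.

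**Figure D2:**
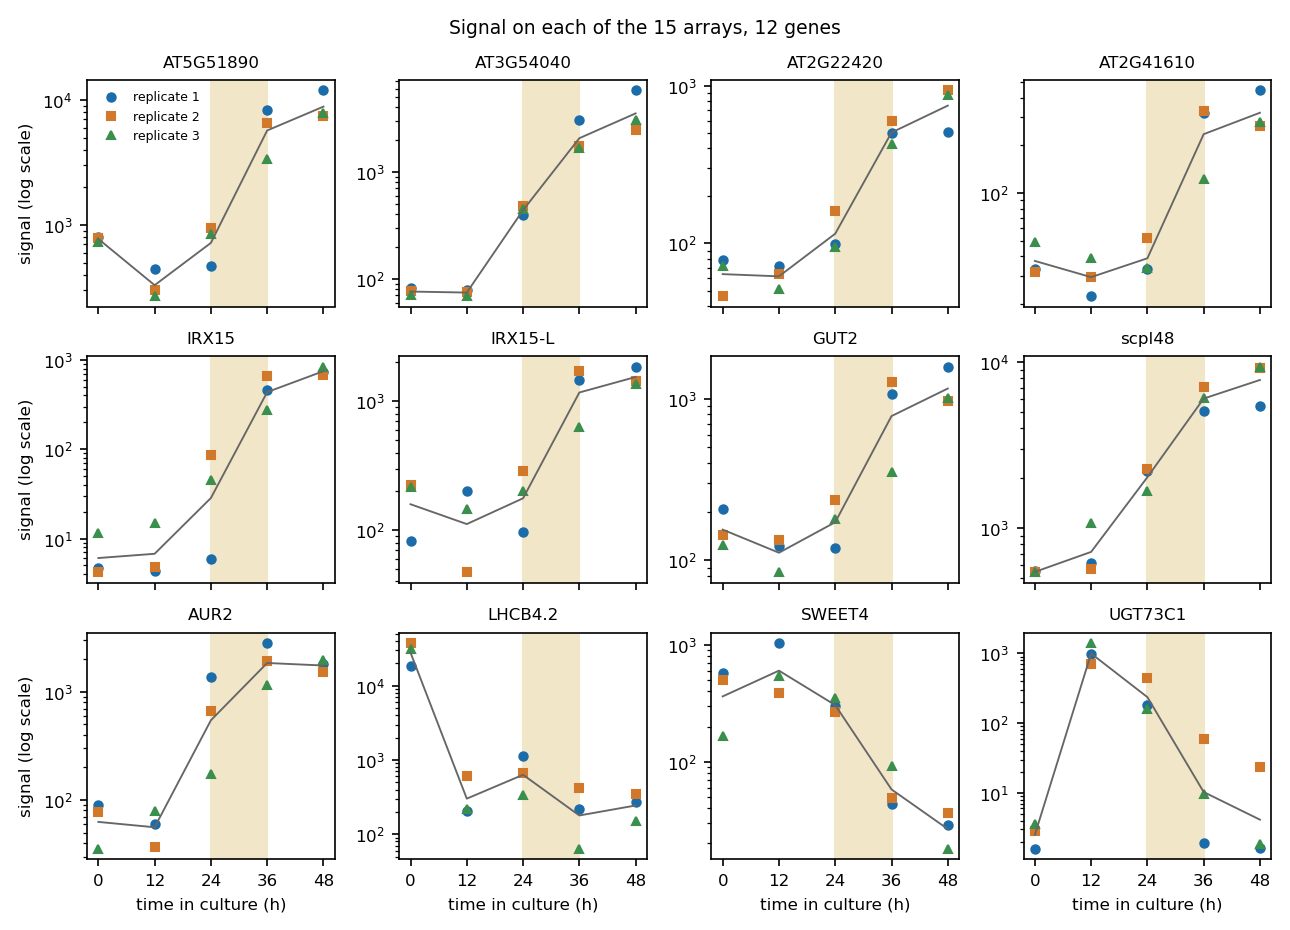
The signal of 12 genes (vertical axis, log scale) on each of the 15 arrays is plotted against time in culture in hours, with symbols for the 3 replicates, a line through the means of log2 signals, and the step from 24 to 36 h shaded. AT5G51890 stayed between means of 337 and 773 up to 24 h and reached 6103 at 36 h. SWEET4 ran the other way, from a mean of 307 at 24 h to 61.3 at 36 h.

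The number of calls rested on single arrays. Without replicate 1 of 24 h or without replicate 1 of 36 h, 0 probe sets were called higher, and without replicate 2 of 36 h 1 was. Without replicate 3 of 24 h 6 were called higher, without replicate 2 of 24 h 33, and without replicate 3 of 36 h 36. The replicate number as a block on all 15 arrays called 24 probe sets (0.106%), 23 higher and 1 lower, of which 13 were among the 17. On the scale log2(signal + 16), 77 were called (0.339%), 71 higher and 6 lower, and these held all 17. The 1 probe set called lower with the block was 245806_at, unnamed here, with 836, 574 and 615 at 24 h and 289, 284 and 183 at 36 h. PDF2.1, a plant defensin, was called with the block alone: its signals were 193, 1110 and 1170 at 24 h and 826, 4649 and 6585 at 36 h. Replicate 1 of PDF2.1 was low at both times, and its log2 change of 2.22 ± 1.01 had adjusted p = 0.510 without the block and 0.0403 with it.

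**Figure D3:**
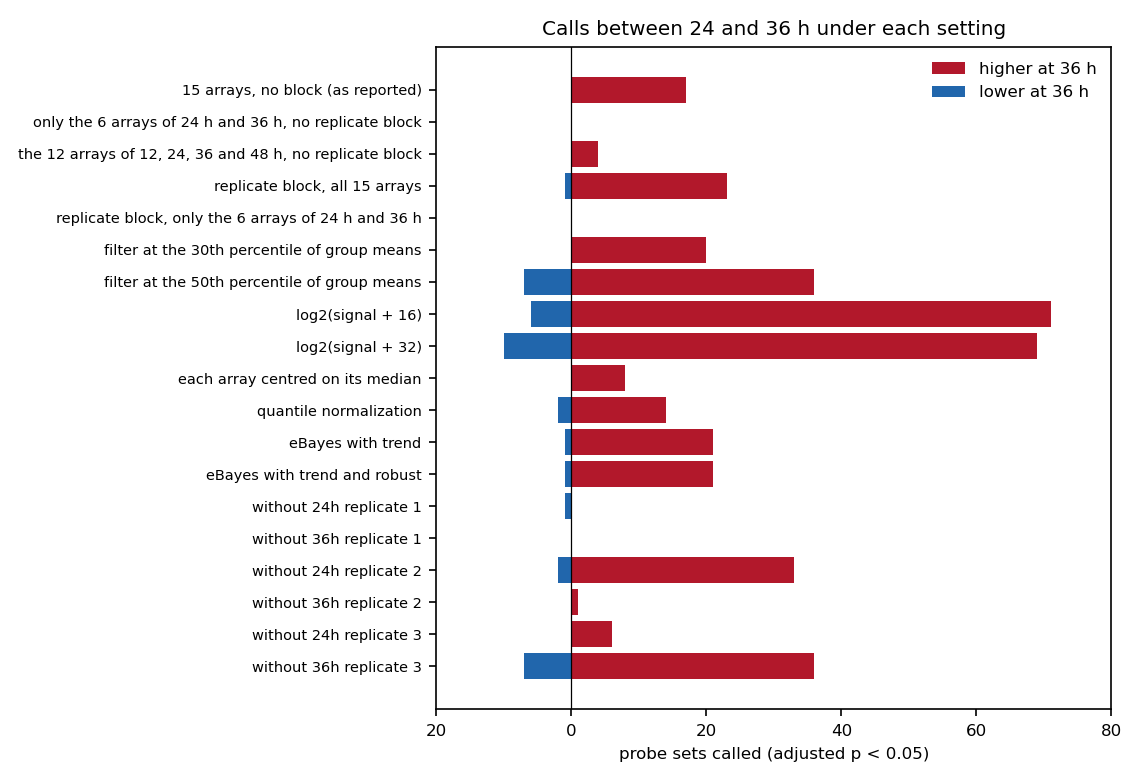
The bars give the number of probe sets called between 24 and 36 h (horizontal axis) under each setting, to the right for higher and to the left for lower at 36 h. The count of higher probe sets runs from 0 with only the 6 arrays, or without replicate 1 of 24 h or of 36 h, to 71 on the scale log2(signal + 16).

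The gene lists were read member by member, since no member of any list was called in the test without the block. Secondary wall synthesis had 4 measured members of 36 listed, all of them enzymes or helpers of xylan synthesis, the main hemicellulose of vessel walls. IRX15 (AT3G50220), which is needed for full-length xylan chains, had signals of 5.94, 85.6 and 45.3 at 24 h and 457, 658 and 277 at 36 h. The 36 h arrays all lay above the 24 h arrays, and replicate 1 at 24 h was near the floor of the measurement. The log2 change of IRX15 was 3.94 ± 0.84, with adjusted p = 0.138, and on the scale log2(signal + 16) it was 3.14 with adjusted p = 0.0104. IRX15-L, its close relative, had 95.7, 287 and 200 at 24 h and 1470, 1725 and 631 at 36 h. Its groups did not overlap either (log2 change 2.73 ± 0.62, adjusted p = 0.165).

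GUT2, also known as IRX10, is a xylan xylosyltransferase and had 118, 238 and 181 at 24 h and 1066, 1268 and 352 at 36 h. As with IRX15 and IRX15-L, replicate 3 was the lowest at 36 h. GUT2 had a log2 change of 2.18 ± 0.46, with adjusted p = 0.138. GUT1, the related IRX10-L, had 547, 544 and 467 at 24 h and 793, 692 and 767 at 36 h. The change of GUT1 was the smallest of the 4, at 0.53 ± 0.21, with adjusted p = 0.436. None of the 4 overlapped between the times, and each was higher in every same-number pair, against 10.2% and 24.5% of all probe sets. The median over the 4 was 2.46, and by replicate number it was 3.56, 2.50 and 1.31. Their summed signal was 781 to 915 at 0 h, 767 to 1154 at 24 h and 2027 to 4343 at 36 h.

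The 6 lignin and monolignol genes measured, of 31 listed, did not move as a group. None of the called probe sets is on this list. Whether the called genes given by locus identifier alone, or the unnamed called probe sets, belong with it was not tested. Of the 6 measured members 3 were above and 3 below 0, with a median of 0.03. It became -0.06 when each array was centred on its median, and -0.54 to 0.15 without single arrays. AT5G66390, PEROXIDASE 72 in the gene table, had 1.97, 9.69 and 40.7 at 24 h and 62.6, 64.3 and 54.0 at 36 h. The groups did not overlap, but the 24 h arrays were dim and far apart (log2 change 2.71 ± 1.52, adjusted p = 0.615). HCT, an enzyme of monolignol synthesis, had 818, 1127 and 1079 at 24 h and 1549, 1622 and 833 at 36 h, which overlap. PRX52, a class III peroxidase, had 188, 683 and 1799 at 24 h and 99.6, 423 and 591 at 36 h, lower in each pair, with a log2 change of -1.07 ± 1.17 and adjusted p = 0.843.

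The regulators of xylem fate were mostly unmeasured, with 2 of 38 listed. AT1G66810, listed as AtC3H14, a zinc-finger protein that acts on secondary wall genes, had 59.5, 278 and 67.2 at 24 h and 486, 512 and 200 at 36 h. Replicate 2 of 24 h was above replicate 3 of 36 h, so the groups overlapped. For AT1G66810 the log2 change was 1.83 ± 0.60, with adjusted p = 0.324. LHW, a transcription factor that acts early in vascular development, had a log2 change of -0.02.

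Xylem cell death was covered by 5 proteases. The carboxypeptidase gene scpl48 had 2199, 2264 and 1683 at 24 h and 5094, 7139 and 6082 at 36 h. The replicates were tight at both times and far apart between them. The log2 change of scpl48 was 1.57 ± 0.29, with adjusted p = 0.117 and 0.0349 on the scale log2(signal + 16). The vacuolar processing enzymes, which cut vacuolar proteins and take part in plant cell death, were split. GAMMA-VPE had 484, 635 and 718 at 24 h and 900, 1038 and 1643 at 36 h (log2 change 0.93 ± 0.44, adjusted p = 0.525). ALPHA-VPE was dim at both times, with 14.7, 1.81 and 18.9 at 24 h and 36.2, 38.3 and 26.2 at 36 h (log2 change 2.06 ± 0.99, adjusted p = 0.542). BETA-VPE ran the other way, with 888, 1743 and 1548 at 24 h and 576, 524 and 1036 at 36 h (log2 change -0.98). In the list, 4 of 5 members were higher without overlap (10.2% of all probe sets were), and the median was 0.93.

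Tubulins, which form the microtubules that guide wall deposition, had a median of 0.25 over 7 members (0.46 without replicate 1 of 24 h). TUB1 stood out with 139, 209 and 101 at 24 h and 574, 554 and 283 at 36 h. It was the only one of the 7 whose groups did not overlap (10.2% of all probe sets were higher without overlap). The log2 change of TUB1 was 1.64 ± 0.52, with adjusted p = 0.308. The further list of microtubule-associated proteins held 37 measured members, 6 higher and 4 lower without overlap, shares near the 10.2% and 8.99% of all probe sets. Its median was 0.25, and 0.12 without replicate 3, 0.13 without replicate 2 and 0.47 without replicate 1 of 24 h. TON1B, a protein of the ring of microtubules that marks the division plane, had 281, 211 and 158 at 24 h and 579, 420 and 363 at 36 h. For TON1B the log2 change was 1.08 ± 0.26, with adjusted p = 0.186.

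**Figure D4:**
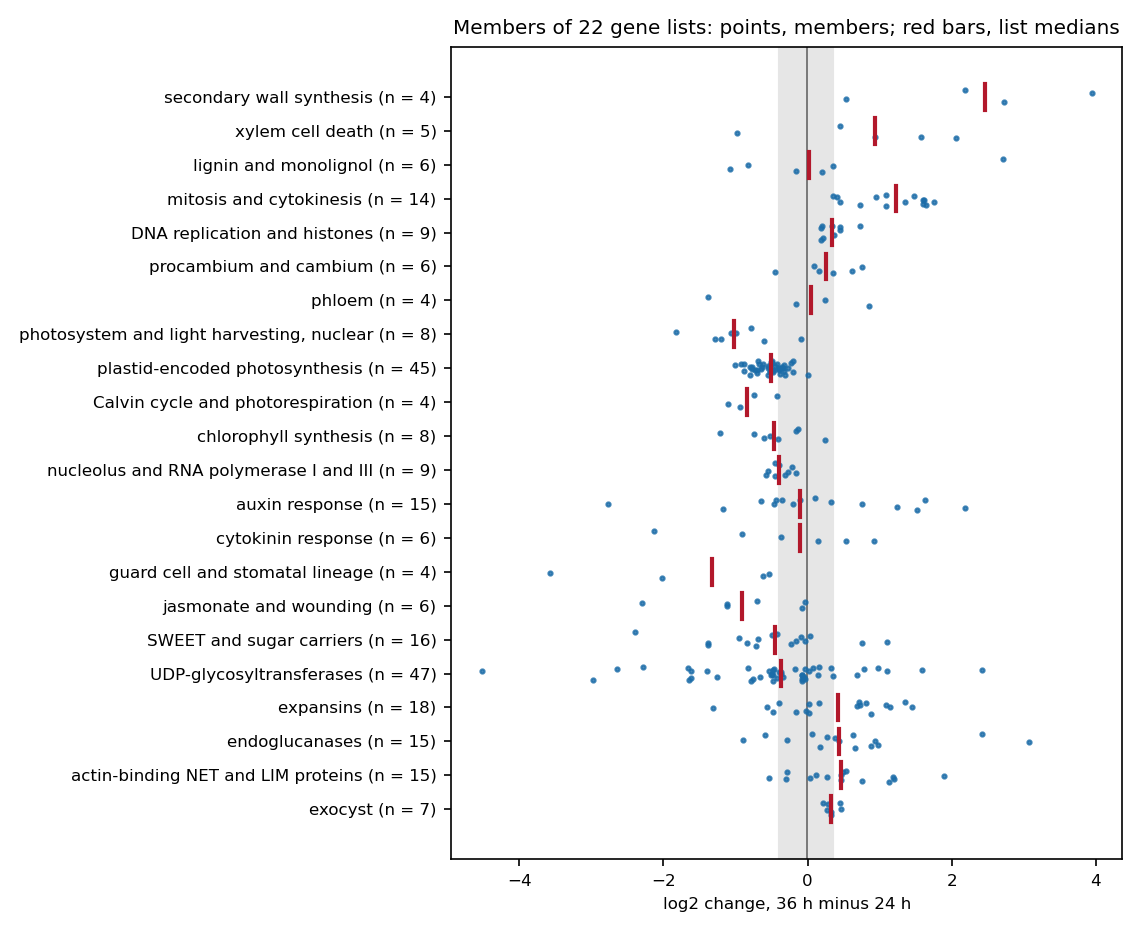
The log2 change from 24 to 36 h (horizontal axis) is shown for the members of 22 gene lists (rows), one point per gene, with red bars at the list medians, a grey line at the median of all probe sets and a grey band over their middle quartiles. The secondary wall list has its median at 2.46 and mitosis at 1.22, while the nuclear photosystem list has its median at -1.03.

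Mitosis and cytokinesis genes had 14 measured members of 70 listed, and all 14 were higher at 36 h in each same-number pair (24.5% of all probe sets were). Their median was 1.22, and by replicate number it was 0.93, 1.22 and 1.39. AUR2, a kinase of the mitotic spindle and cell plate, had 1385, 670 and 176 at 24 h and 2838, 1945 and 1146 at 36 h. The order of the replicates was the same at both times, replicate 1 highest and replicate 3 lowest, so replicate 1 of 24 h lay above replicate 3 of 36 h. The log2 change of AUR2 was 1.76 ± 0.65, with adjusted p = 0.392. AUR1 had 935, 481 and 194 at 24 h and 2647, 1317 and 693 at 36 h, in the same order. The chromosomal protein 3xHMG-box2 had 1897, 1264 and 359 at 24 h and 3791, 3229 and 1937 at 36 h, without overlap (log2 change 1.60 ± 0.56, adjusted p = 0.367). TOPII, the DNA topoisomerase II that separates chromosomes, is not one of these 14. It had 986, 386 and 158 at 24 h and 1778, 1307 and 930 at 36 h. A further list of 17 chromosome and cell division genes had a lower median, 0.28. Its members ran from -0.62 to 1.72, with 15 above and 2 below 0.

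Genes of DNA replication and histones were closer to 0. All 9 measured members were above 0, with a median of 0.34, 2 without overlap (10.2% of all probe sets) and 7 higher in each pair (24.5%). Without replicate 1 of 36 h the median was 0.20. HTR12, the centromeric histone, is a member of this list and of the mitosis and cytokinesis list. It had 296, 180 and 245 at 24 h and 419, 382 and 365 at 36 h (log2 change 0.72 ± 0.44, adjusted p = 0.662). SIM, an inhibitor of cyclin-dependent kinases that ends division in favour of endoreduplication, had 151, 157 and 60.9 at 24 h and 548, 365 and 77.6 at 36 h. Replicate 3 of SIM was low at both times, with a log2 change of 1.14 ± 0.72 and adjusted p = 0.678. Without replicate 3 of 24 h the median of the mitosis list was 0.75, and without replicate 1 of 24 h it was 1.64.

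**Figure D5:**
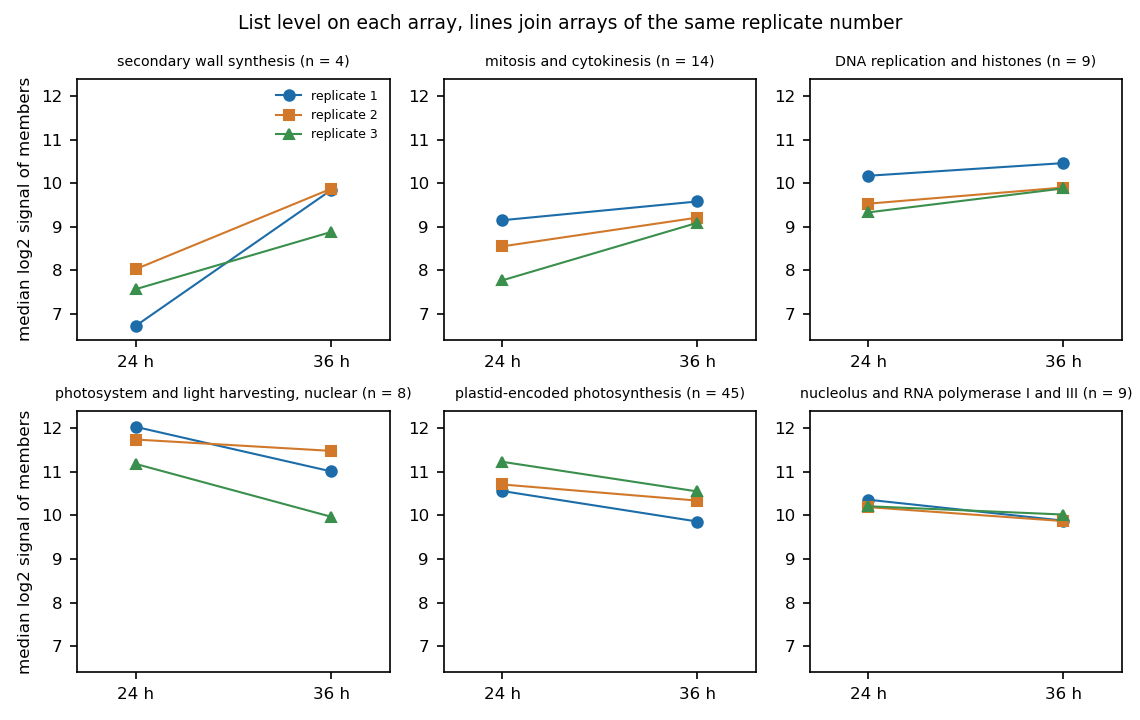
The median log2 signal of the members of 6 gene lists (vertical axis) is shown on each array of 24 h and 36 h, with lines joining arrays of the same replicate number. The mitosis list was higher at 36 h in each of the 3 pairs, with medians of the members' changes of 0.93, 1.22 and 1.39, and the nuclear photosystem list was lower in each pair.

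Photosynthesis genes had lower mean signals at 36 h in nearly every member. All 8 nuclear genes of photosystems and light harvesting were below 0, 7 of them in each pair (22.9% of all probe sets were), with a median of -1.03. Of the 8, only ATPC1, the gamma subunit of the chloroplast ATP synthase, did not overlap (8.99% of all probe sets were lower without overlap). ATPC1 had 6275, 3517 and 3369 at 24 h and 2411, 2679 and 1458 at 36 h. For ATPC1 the log2 change was -0.99 ± 0.32, with adjusted p = 0.314. LHCB4.2, an antenna protein of photosystem II, had 1145, 658 and 335 at 24 h and 216, 416 and 63.8 at 36 h. Replicate 3 of 24 h was below replicate 2 of 36 h (log2 change -1.82 ± 0.69, adjusted p = 0.408). LHCB4.2 had a mean of 29014 at 0 h and 343 at 12 h, so the largest part of its loss came before this step. Its mean was higher at 24 h, at 713, and was 232 at 36 h. The list as a whole had a median change of 0.72 from 12 to 24 h, so the course was not a steady fall. From 24 to 36 h the median by replicate number was -1.34, -0.37 and -1.20, and without replicate 3 of 36 h it was -0.54.

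Of 45 plastid-encoded photosynthesis genes, 44 were below 0, 39 in each pair (22.9% of all probe sets) and 12 without overlap (8.99%). Their median was -0.51, and -0.28 without replicate 1 of 36 h. Plastid genes lie on shared transcripts and in the same organelle, so they are not 45 independent measurements. The gene psbC, for a core antenna of photosystem II, had 1647, 3236 and 4072 at 24 h and 1076, 1650 and 1500 at 36 h. The highest 36 h array was just above the lowest 24 h array (log2 change -1.01 ± 0.40, adjusted p = 0.426). The gene rbcL, for the large subunit of Rubisco, had 2296, 1669 and 2495 at 24 h and 928, 1138 and 1457 at 36 h, without overlap (log2 change -0.88 ± 0.35, adjusted p = 0.430). Bright probe sets were slightly below 0 in general, with a median of -0.15 at a mean log2 signal of 12 or above. The 11 plastid genes that bright had a median of -0.39 and the other 34 one of -0.52. Plastid-encoded genes of plastid gene expression were also all below 0, 22 of 22, but with a median of -0.20 and 1 without overlap. That median rested on 1 array: without replicate 1 of 36 h it was -0.02, and by replicate number it was -0.54, -0.08 and -0.06.

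Calvin cycle and chlorophyll genes were mostly below 0 as well. In the step before, from 12 to 24 h, their medians had been above 0, at 0.34 and 0.92. RCA, the activase of Rubisco, had 3567, 2784 and 2921 at 24 h and 1848, 2174 and 1018 at 36 h, without overlap (log2 change -0.94 ± 0.31, adjusted p = 0.326). PRK, phosphoribulokinase of the Calvin cycle, had 981, 716 and 583 at 24 h and 480, 752 and 114 at 36 h, which overlap (log2 change -1.10 ± 0.66, adjusted p = 0.646). All 4 Calvin cycle genes were below 0, with a median of -0.84. Without replicate 3 of 36 h it was -0.36, and by replicate number it was -0.85, 0.01 and -1.48. Chlorophyll synthesis had 7 of 8 below 0 and a median of -0.47, which was -0.29 without replicate 1 of 24 h. PORB, which makes chlorophyllide in the light, had 1007, 482 and 247 at 24 h and 185, 472 and 111 at 36 h (log2 change -1.21 ± 0.71, adjusted p = 0.636).

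Genes of the nucleolus and of RNA polymerases I and III, which make ribosomal and transfer RNA, were all below 0. The 9 measured members had a median of -0.40, with 3 lower without overlap (8.99% of all probe sets) and 8 lower in each pair (22.9%). NRPA2, a large subunit of RNA polymerase I, had 1848, 1284 and 1740 at 24 h and 948, 970 and 1372 at 36 h. Replicate 3 of 36 h was above replicate 2 of 24 h (log2 change -0.57 ± 0.37, adjusted p = 0.694). Leaving out single arrays moved the median of the 9 only between -0.35 and -0.44.

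Sugar transporters were lower in 13 of 16 members, with a median of -0.45 (-0.65 from 12 to 24 h) and 3 lower without overlap (8.99% of all probe sets). SWEET4, a hexose transporter, had 301, 267 and 353 at 24 h and 43.1, 48.9 and 92.0 at 36 h. The 2 groups were far apart, with a log2 change of -2.40 ± 0.51 and adjusted p = 0.138. SWEET11, which releases sucrose for loading into the phloem, had 258, 223 and 258 at 24 h and 90.3, 89.8 and 105 at 36 h. The arrays within each time differed little, and the log2 change of SWEET11 was -1.38 ± 0.29, with adjusted p = 0.138 and 0.0872 with the replicate block. Its fall had begun earlier, from means of 5927 at 0 h and 799 at 12 h. SWEET11 was called lower from 12 to 24 h in limma (log2 change -1.66, adjusted p = 0.0412).

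Enzymes that modify small molecules were counted by family. Among 47 UDP-glycosyltransferases, which attach sugars to hormones and other small molecules, 35 were below 0, with a median of -0.37 (-0.73 from 12 to 24 h). Without overlap, 13 were lower and 1 was higher, against 8.99% and 10.2% of all probe sets. UGT73C1 was highest at 12 h, with a mean of 1036 against 2.65 at 0 h, and was already lower at 24 h. It had 183, 447 and 161 at 24 h and 1.91, 59.6 and 9.62 at 36 h. Every array was lower at 36 h, but 2 of the 3 were dim there, with a log2 change of -4.52 ± 1.18 and adjusted p = 0.209 (0.0302 on the scale log2(signal + 16)). The cytochrome P450 gene CYP71B26 had 347, 579 and 556 at 24 h and 61.8, 138 and 166 at 36 h. The log2 change of CYP71B26 was -2.10 ± 0.52, with adjusted p = 0.189, while the median of 22 P450 genes was -0.10 (-0.63 to -0.01 without single arrays). DFR, an enzyme of anthocyanin synthesis, had 1614, 813 and 427 at 24 h and 284, 175 and 116 at 36 h. Its mean had been 36.1 at 0 h and 336 at 12 h, so DFR was brightest at 24 h (log2 change -2.20 ± 0.84, adjusted p = 0.407). UF3GT of the same pathway had 682, 428 and 235 at 24 h and 149, 95.1 and 101 at 36 h.

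Primary wall enzymes, which loosen and cut the extensible wall of growing cells, went both ways. GH9B6, an endoglucanase, had 73.6, 62.4 and 24.4 at 24 h and 366, 206 and 230 at 36 h. It did not overlap and had a log2 change of 2.43 ± 0.51, with adjusted p = 0.138 and 0.0292 on the scale log2(signal + 16). The 15 endoglucanases had a median of 0.43 (0.26 without replicate 3 of 24 h), with 7 higher and 0 lower in each pair, against 24.5% and 22.9% of all probe sets. EXPA15, an expansin, had 842, 685 and 711 at 24 h and 1281, 1369 and 2224 at 36 h, without overlap. The 18 expansins had a median of 0.42 (0.20 without replicate 2 and 0.22 without replicate 3 of 24 h). Of these, 3 were higher and 1 lower without overlap, against 10.2% and 8.99% of all probe sets. XTH20, a xyloglucan endotransglucosylase, had 61.4, 184 and 46.4 at 24 h and 158, 649 and 1342 at 36 h, which overlap. The 10 members of that family had a median of 0.02 (-0.05 to 0.42 without single arrays).

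Hormone response genes gave no common direction. The 15 auxin response genes had a median of -0.11 (-0.22 to 0.29 without single arrays), with 7 above and 8 below 0. IAA20, a repressor of auxin response, had 92.8, 317 and 106 at 24 h and 467, 584 and 272 at 36 h (log2 change 1.52 ± 0.51, adjusted p = 0.335). IAA33 of the same family was dim, with 16.9, 9.29 and 32.3 at 24 h and 2.102, 1.94 and 3.92 at 36 h (log2 change -2.77 ± 0.93, adjusted p = 0.332). In the cytokinin list, RR18, a response regulator, was dim as well, with a log2 change of -2.13 ± 1.16 and adjusted p = 0.602, and the median of 6 was -0.11 (-0.30 to 0.25 without single arrays). The 3 brassinosteroid genes were higher in each pair (24.5% of all probe sets were). BRL1, a brassinosteroid receptor of vascular cells, had 72.6, 78.6 and 70.3 at 24 h and 190, 125 and 115 at 36 h, without overlap (log2 change 0.92 ± 0.38, adjusted p = 0.451).

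Jasmonate and wounding genes were all 6 below 0, with a median of -0.91 and 0 without overlap (8.99% of all probe sets were lower without overlap). JMT, which methylates jasmonate, had 169, 843 and 294 at 24 h and 29.6, 221 and 53.6 at 36 h. Replicate 2 was the highest at both times, and JMT was lower in each pair (log2 change -2.30 ± 0.77, adjusted p = 0.335). Over the list, the median was -0.31 without replicate 1 of 36 h or without replicate 3 of 24 h. Among senescence genes SAG29 had a log2 change of -0.67 ± 1.07 (adjusted p = 0.902), and the median of 5 was -0.12 (-0.34 to 0.21 without single arrays).

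Markers of other cell types were read in the same way. Procambium and cambium genes had 5 of 6 above 0 and a median change of 0.26 (0.44 without replicate 1 of 36 h), and a summed signal of 3064 to 3343 at 24 h and 3905 to 4507 at 36 h. MOL1, a receptor kinase of the cambium, had 418, 242 and 194 at 24 h and 599, 389 and 407 at 36 h (log2 change 0.76 ± 0.40, adjusted p = 0.591). Phloem markers summed to 707 to 1141 at 24 h and 901 to 1208 at 36 h, with SWEET11 lower and OPS, a protein of early phloem, at 647, 484 and 267 at 24 h and 781, 955 and 658 at 36 h. The 4 genes of the guard cell and stomatal lineage list, STOMAGEN among them, summed to 174 to 425 at 24 h and 133 to 251 at 36 h. Of these, 2 had mean signals below 34.24 at every time, so the sum rested on the others. MUTE, a regulator of stomatal lineage cells, was near the floor, with 14.7, 10.7 and 21.2 at 24 h and 0.888, 1.26 and 1.75 at 36 h (log2 change -3.58 ± 0.96, adjusted p = 0.225).

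Epidermis was measured by 1 gene. TRY, a regulator of trichome patterning, was dim at 3.06, 6.94 and 6.86 at 24 h and 1.94, 5.94 and 1.17 at 36 h. The groups overlapped (log2 change -1.14 ± 0.74, adjusted p = 0.692). The part of such cell types in the results above was not tested. BBM, a regulator of embryonic growth and the one root and callus gene measured, was dim at 0.879, 2.78 and 3.13 at 24 h and 2.61, 2.99 and 1.80 at 36 h (log2 change 0.29 ± 0.66, adjusted p = 0.936). PEX4, used as a reference gene, had 1827, 1683 and 1442 at 24 h and 2061, 1900 and 1602 at 36 h, a log2 change of 0.17 ± 0.23 with adjusted p = 0.878.

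The step was set against the 12 h before and after it. The comparisons share the 24 h or the 36 h arrays, so their values are only given side by side. From 12 to 24 h 65 probe sets rose and 13 fell, and the SD of the log2 change over bright probe sets was 0.812. From 24 to 36 h that SD was 0.697. From 36 to 48 h 0 probe sets were called by limma, with 811 at an unadjusted p under 0.05, and the SD was 0.505. The median change of the secondary wall list was 0.65 from 12 to 24 h, 2.46 from 24 to 36 h and 0.48 from 36 to 48 h. That of the mitosis list was 1.74, 1.22 and 0.00.

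The difference between steps was also tested itself. For the step from 24 to 36 h minus that from 12 to 24 h, 0 probe sets (0%) passed in limma, 903 (3.97%) had an unadjusted p under 0.05, and the smallest adjusted p was 0.236. For the step minus that from 36 to 48 h, 0 passed, 474 (2.08%) had an unadjusted p under 0.05, and the smallest adjusted p was 1.00. No gene was thus shown to change in this step more than in its neighbours.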

How the data were processed

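Total RNA of 15 leaf disk samples was hybridised to 1-colour Affymetrix arrays, 1 per sample, per the labels' protocols. The authors deposited linear intensities, for which the submitters' processing notes name GCOS and MAS5 (versions: not given in the sources used here). Each array's mean trimmed by 2% was 500 to 500.1 in the file, which hides any shift that most transcripts have in common. No detection calls were used. The number of arrays limits the precision.

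The 64 control probe sets were left out and log2 was taken with no offset. limma 3.58.1 in R 4.3.3 was fitted to 5 group means over 15 arrays (10 residual degrees of freedom), with a two-sided moderated test of 36 h minus 24 h and Benjamini-Hochberg adjustment over 22746 probe sets. Calls were made at an adjusted p under 0.05. The fit was tested on simulated data. Errors after ± are limma's moderated standard errors of log2 changes, whose spread is estimated over all 15 arrays.

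The replicate numbers of the titles paired the arrays in the same-number comparisons and in the fits with the block. The main test did not use them. Over all probe sets, deviations from the group means correlated at 0.246, 0.141 and 0.327 for arrays of the same number. For different numbers the range was -0.266 to 0.022. Among probe sets whose highest group mean reached 34.24, the values were 0.497, 0.289 and 0.547, and -0.468 to -0.023 for different numbers. Deviations of 3 arrays from their mean sum to 0, so the values for different numbers are tied to the others. The unnumbered array supplied the last pair.

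Genes were named from the platform annotation, in which 503 probe sets have several genes and 8730 none; 13436 of those with 1 gene matched the TAIR10.1 gene table, used for names only. The rule named called genes with 1 gene, no overlap and a higher group mean of at least 100 (up to 10 each way), and from each main list the largest called changes, or the largest change where none was called. The members and lists were chosen with earlier results of these data known, and 11 lists were written from the annotation. The symbol FDH was taken out of the epidermis list after its values had been seen, since the gene table has it as formate dehydrogenase. A list gene with several probe sets was represented by the brightest. The counts of same-number pairs and the bins of signal level were added after values had been seen. Alternatives covered the arrays fitted, the block, filters on dim probe sets, offsets of 16 and 32, normalization, the variance model and leaving out single arrays.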

Additional observations from a re-analysis of the deposited data

How the results depend on the processing

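The 17 higher and 0 lower calls moved with most settings. With only the 6 arrays 0 were called higher in limma (2531 probe sets at an unadjusted p under 0.05), and 0 with the replicate block on those 6 (4228 unadjusted). With 12 arrays 4 were called higher. The replicate block on 15 arrays called 23 higher and 1 lower. A filter at the percentile 50 of group means called 36 higher and 7 lower, log2(signal + 16) 71 and 6, and log2(signal + 32) 69 and 10. Centring arrays on their medians left 8 higher. Quantile normalization called 2 lower, and either trended variance model 1 lower. Leaving out single arrays gave 0 to 36 higher and 0 to 7 lower. Fits with no replicate 1 of 24 h had 2075 probe sets at an unadjusted p under 0.05 and fits with no replicate 1 of 36 h 1275. For the difference from the earlier step, 2 were called with 12 arrays and 0 to 1 without single arrays. For the difference from the later step, 0 to 1 were called without single arrays. Of the named genes BBM turned direction, with log2 changes of -0.288 without replicate 1 of 24 h and 0.628 without replicate 3 of 24 h. Causes were not tested, beyond fewer arrays or probe sets in a fit. Signals below about 34.24 limit the folds of dim genes.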

Other observations

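Several gene groups not described above lay mostly on one side of 0 between 24 and 36 h, with no member called. All 7 measured subunits of the exocyst, which tethers secretory vesicles at the plasma membrane, were above 0, with a median of 0.32 and 2 higher without overlap (10.2% of all probe sets were). SEC10 had 650.5, 584 and 666 at 24 h and 786, 683 and 831.5 at 36 h. Actin-binding NET and LIM proteins had 12 of 15 above 0, a median of 0.47 and 4 higher without overlap, against the same 10.2%. PLIM2b had 135.5, 187 and 135.2 at 24 h and 425, 267 and 361 at 36 h, with a log2 change of 1.19 ± 0.33 and adjusted p = 0.238. Autophagy genes had 9 of 10 above 0, with a median of 0.27 (0.07 without replicate 1 of 24 h). ATG3, an enzyme of autophagosome formation, had 398, 466 and 444 at 24 h and 629, 647 and 657 at 36 h.

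Of 21 beta-glucosidases 5 were higher and 2 lower without overlap, against 10.2% and 8.99% of all probe sets. Their median was 0.00, and -0.05 to 0.49 without single arrays. BGLU28 ranged from 210 to 5199 at 36 h, against 101 to 200.1 at 24 h. BGLU33 had 1167, 396 and 964.5 at 24 h and 6460, 2183 and 1356 at 36 h. Of 15 mitochondrion-encoded genes of respiration, 12 were below 0, with a median of -0.40 (-0.10 without replicate 3 and -0.67 without replicate 1 of 24 h, -0.23 without replicate 1 of 36 h). The lists of fasciclin-like proteins, ABC transporters, aquaporins, MYB factors and lipid transfer proteins had 0 measured members in the annotation used here.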
